A study of Mus musculus with 4 samples.

Results

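Neutrophils are drawn into inflamed tissue by CXC chemokines that act on the receptor CXCR2, and their output from the bone marrow is driven by G-CSF. The 7 genes described here are the CXCR2 ligands Cxcl1, Cxcl2, Cxcl3 and Cxcl5, the receptor gene Cxcr2, the G-CSF gene Csf3 and the G-CSF receptor gene Csf3r. They were taken by symbol from the gene table of single-cell RNA libraries, where all 7 were found among 32285 genes, and each had at least 1 UMI (a counted RNA molecule) in every library. Their levels were measured in each marker-defined cell type, to show which cells held the ligand transcripts and which held the receptors, beside the neutrophil share of each library.

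The cells came from ascites of female FVB mice, 6 weeks after Br-Luc mouse ovarian cancer cells had been put into the peritoneal cavity. Br-Luc is 1 engineered line that lacks p53 and brca1 and carries myc and an active Akt (Akt-myr), so all 4 libraries share that tumor. Mice of the siCont group were given a control siRNA (siCont-LNA in the study) and mice of the siFXR1-LNA group an siRNA with locked nucleic acids against Fxr1, both packed in the polymer jetPEI. There were 2 libraries per group, each made from the pooled ascites of 3 mice, so the spread between libraries is one between pools, and 2 pools per group limit every test below.

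CXCL1, CXCL2, CXCL3 and CXCL5 are small secreted chemokines of the ELR class, which bind CXCR2 on neutrophils and guide them along a gradient. Activated macrophages, epithelial and stromal cells are textbook sources, with transcription driven by NF-kappaB and short-lived transcripts. CXCR2 is carried mainly by mature neutrophils in mice and is taken up from the cell surface after ligand binding. G-CSF, the product of Csf3, is made by macrophages and stromal cells on inflammatory stimulation, and its receptor, the product of Csf3r, is carried by neutrophils, their precursors and some monocytes.

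The libraries held 78179267 to 113606837 UMIs and, after the filter of the methods, 16874 to 54344 cells with a median of 1349 to 2653 UMIs. The share of hemoglobin UMIs was 29.6% and 41.1% in the siCont libraries against 10.0% and 9.12% in siFXR1-LNA. Of the kept barcodes of a library, 10.8% to 15.1% were also present in another library. One unnamed cluster of 46577 shallow cells, led by Sprr1a, Ogn and Lox, held 41045 cells of siFXR1-LNA replicate 1 and 5436 of replicate 2 but 53 and 43 of the siCont libraries. Fxr1, the gene the siRNA targets, stood at 55.8 and 33.9 CPM (UMIs per 1000000 UMIs) over all kept siCont cells and at 104 and 71.8 CPM over those labelled siFXR1-LNA. Over all kept cells the targeted transcript was therefore not lower in the treated libraries, in values that include the unequal hemoglobin UMIs. Its change did not pass the test in neutrophils (log2 fold change 0.86 ± 0.411 SE, edgeR quasi-likelihood adjusted p = 0.297) or macrophages (0.36 ± 0.112, adjusted p = 0.0824). The paper reports lower Fxr1 in epithelial cells of the treated group and lower FXR1 protein in transfected Br-Luc cells. No class was named epithelial here, so tumor cells were not tested. Below, siFXR1-LNA stands for the libraries labelled so.

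Neutrophils, named from markers such as S100a8, S100a9, Retnlg and Ly6g, made up a larger share of both siFXR1-LNA libraries. They were 1.19% of kept cells in siCont replicate 1 (433 cells, exact binomial 95% interval 1.08% to 1.31%) and 3.58% in replicate 2 (898 cells). In siFXR1-LNA they were 10.0% in replicate 1 (5444 cells) and 28.4% in replicate 2 (4788 cells). The groups did not overlap, with means of 2.38% ± 1.69 and 19.2% ± 13.0 (SD, n = 2). The mean difference of 16.8 percentage points gave a two-sided exact permutation p of 0.333, which is the smallest that 2 libraries against 2 can give. Among named cells other than erythroid ones the shares were 3.43% and 10.3% in siCont and 46.6% and 44.3% in siFXR1-LNA. Intervals on shares here cover counting error only.

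**Figure D1:**
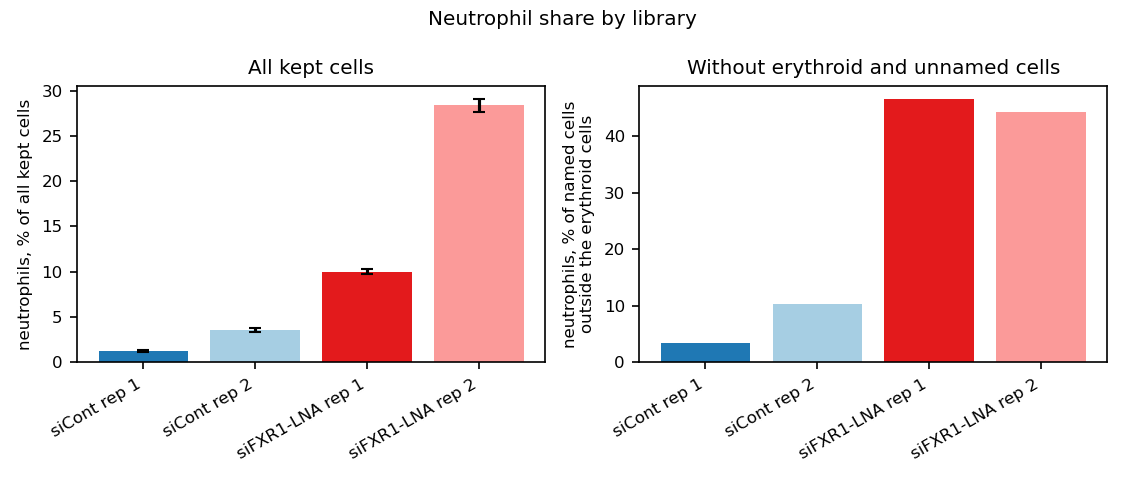
Neutrophils as a percent of all kept cells (left, bars with exact binomial 95% intervals) and of the named cells outside the erythroid cells (right), 1 bar per library. Both siFXR1-LNA bars stand above both siCont bars in each panel, from 10.0% and 28.4% against 1.19% and 3.58% on the left to 46.6% and 44.3% against 3.43% and 10.3% on the right.

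Within the neutrophils, the ligand genes Cxcl1, Cxcl2 and Cxcl3 and the cytokine gene Csf3 were higher in siFXR1-LNA and the receptor gene Cxcr2 was lower, although the siFXR1-LNA level of Cxcl1 was no higher than that of T cells. Of 6 members that could be tested there, 4 were past the threshold as higher and 1 as lower, where 1.11% of 12305 genes were called higher and 2.54% were called lower (edgeR quasi-likelihood test with Benjamini-Hochberg adjustment over all genes, threshold 0.05). In macrophages 6 of 7 members were past it as higher, where 9.3% of 14310 genes were called higher. With edgeR and no filter on low counts, none of these neutrophil calls held. The neutrophils and the macrophages of the groups were mostly different subclusters, as detailed further on. The fits compare everything a class held in a library, so they do not separate a change within a cell state from a change in which states were present.

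Cxcl2, which encodes the chemokine also known as MIP-2, was the most abundant ligand transcript by UMIs in 3 of the 4 libraries, the exception being siCont replicate 1 with 501 UMIs of Cxcl1 and 333 of Cxcl2. In neutrophils it had 65.2 and 372 CPM in siCont (replicate 1 first, here and below) against 2267 and 4294 CPM in siFXR1-LNA. Every siFXR1-LNA value was above every siCont value, although the siCont libraries were far apart. The log2 fold change was 3.55 ± 0.780 (SE), with an edgeR adjusted p of 0.0351. In macrophages the gene had 9.59 and 11.9 CPM in siCont and 717 and 883 CPM in siFXR1-LNA. There the libraries of a group lay close together, and the log2 fold change was 6.40 ± 0.251 (edgeR adjusted p = 0.00193). Over whole libraries, Cxcl2 had 333 and 1098 UMIs in siCont and 51308 and 83831 UMIs in siFXR1-LNA, a comparison for which no test was run.

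Cxcl3, a close paralog of Cxcl2 that lies on the same chromosome, followed the same order. In neutrophils it had 5.22 and 54.9 CPM in siCont and 308 and 581 CPM in siFXR1-LNA, a log2 fold change of 3.45 ± 0.806 (edgeR adjusted p = 0.0431). In macrophages it had 0.691 and 2.25 CPM in siCont, from 16 and 39 UMIs, and 261 and 303 CPM in siFXR1-LNA. The macrophage log2 fold change was 7.83 ± 0.530 (edgeR adjusted p = 0.00517), the largest of the members with UMIs in both siCont libraries. The neutrophil result for Cxcl3 was past the threshold by a small margin. It missed it with DESeq2 (adjusted p = 0.191) and in several other fits, which are listed at the end.

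The 4 ligand genes lie together on mouse chromosome 5 (GRCm38, + strand): Cxcl5 at chr5:90759360-90761624, Cxcl3 at chr5:90786103-90789600, Cxcl1 at chr5:90891241-90893115 and Cxcl2 at chr5:90903871-90905938. No other annotated gene overlaps any of the 7 members. Since Cxcl1, Cxcl2 and Cxcl3 moved in the same direction, the bases 100 to 31 before their annotated starts are shown, from RefSeq on GRCm38.p6. They cover chr5:90786001-90786070, chr5:90891145-90891214 and chr5:90903799-90903868 in the order printed. Capitals mark matches, on either strand, to the NF-kappaB-type motif (GGG, any 3 bases, then TTCC), and matches that overlap run together.
Cxcl3: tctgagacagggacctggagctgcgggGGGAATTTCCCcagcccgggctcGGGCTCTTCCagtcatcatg
Cxcl1: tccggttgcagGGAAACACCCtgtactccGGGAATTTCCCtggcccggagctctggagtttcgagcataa
Cxcl2: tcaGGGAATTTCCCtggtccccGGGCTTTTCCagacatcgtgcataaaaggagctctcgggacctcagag
All 3 windows hold the run GGGAATTTCCC, which matches the motif on both strands. Cxcl3 and Cxcl2 each carry a further match downstream of it, and Cxcl1 one upstream of it. The motif was found in 5.56% of the 32851 RefSeq promoters of the same 300 bases (250 before to 50 after the start). A TATAAA box, found in 13.6% of promoters, was present in Cxcl3 just after the bases shown, and not in the windows of Cxcl1, Cxcl2, Cxcr2 or Csf3r. Of the other members, Csf3r (chr4:126024550-126044440) had 1 match to the NF-kappaB-type motif and Cxcr2 (chr1:74153989-74161246) had none, while Cxcl5 and Csf3 (chr11:98701263-98703629) are named only. A match of letters is a description and no evidence of binding.

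Cxcl1, which encodes the chemokine KC, showed a different distribution. In neutrophils it had 2.61 and 2.86 CPM in siCont and 24.4 and 30.4 CPM in siFXR1-LNA (log2 fold change 3.02 ± 0.531, edgeR adjusted p = 0.0131). In macrophages it had 2.03 and 0.749 CPM in siCont and 16.1 and 15.5 CPM in siFXR1-LNA (3.66 ± 0.432, edgeR adjusted p = 0.0104, but 0.0704 and 0.0574 without siFXR1-LNA replicate 1 or 2). The same level was met in cells that are not known as Cxcl1 sources. T cells of the siFXR1-LNA libraries had 26.9 and 30.8 CPM and B cells 26.2 and 23.8 CPM, above the macrophages, and in siCont replicate 1 the erythroid cells had 5.84 CPM against 2.03 in macrophages. No level of Cxcl1 above that of T cells was thus seen in the neutrophils or macrophages of siFXR1-LNA, and the part of free RNA in it was not tested. Its highest levels in siFXR1-LNA were in unnamed clusters, at 42.6 and 53.0 CPM in the one led by Kcnd2 and Tenm3 and at 35.5 and 39.3 CPM in the one led by Sprr1a. That last cluster held 65.2% and 29.5% of all Cxcl1 UMIs of the siFXR1-LNA libraries, while macrophages held 366 of 3339 and 512 of 1720 and neutrophils 277 and 352. The Kcnd2-led cluster matched the epithelial or mesothelial marker list best, with 3 of 10 markers raised, and stayed unnamed by the rule. The Sprr1a-led one had fewer than 3 raised markers of any list, but 4 of these 10 with members kept in the clustering.

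Cxcl5, which encodes the chemokine LIX, was the scarcest ligand in every library but siCont replicate 1, where Cxcl3 had 23 UMIs and Cxcl5 28, and was mainly a macrophage transcript in siFXR1-LNA. In macrophages it had 0.216 and 0 CPM in siCont and 11.5 and 11.1 CPM in siFXR1-LNA (log2 fold change 6.67 ± 0.671, edgeR adjusted p = 0.00806, but 0.0599 without siFXR1-LNA replicate 1). B cells of the same siFXR1-LNA libraries had 3.53 and 2.26 CPM and T cells 1.05 and 1.68 CPM, all below the macrophages. In neutrophils it had no UMI in siCont and 1.41 and 1.30 CPM in siFXR1-LNA, which was below the B cell level and too few UMIs for the test. Against 3 counts over the siCont neutrophils this was at least 1.13-fold higher. In siCont the few Cxcl5 UMIs, 28 and 9 per library, lay mostly in the Kcnd2-led cluster (35.7% and 55.6%) and in erythroid cells (25.0% and 22.2%).

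Csf3 was nearly absent from the siCont libraries. Both siCont libraries held 2 UMIs each over all cells, and siFXR1-LNA replicates 1 and 2 held 797 and 1062. In macrophages there was no UMI in siCont and 21.2 and 21.8 CPM in siFXR1-LNA, which is at least 291-fold higher against 3 counts over the siCont group (edgeR adjusted p = 0.00383). In neutrophils there was again none in siCont and 13.1 and 23.8 CPM in siFXR1-LNA, at least 15.5-fold higher (edgeR adjusted p = 0.0107). The neutrophil bound is lower because siCont neutrophils were few and 3 counts there amount to 1.19 CPM. T cells of siFXR1-LNA had 0.527 and 2.35 CPM and B cells 0.504 and 2.83 CPM, well under both classes.

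**Figure D2:**
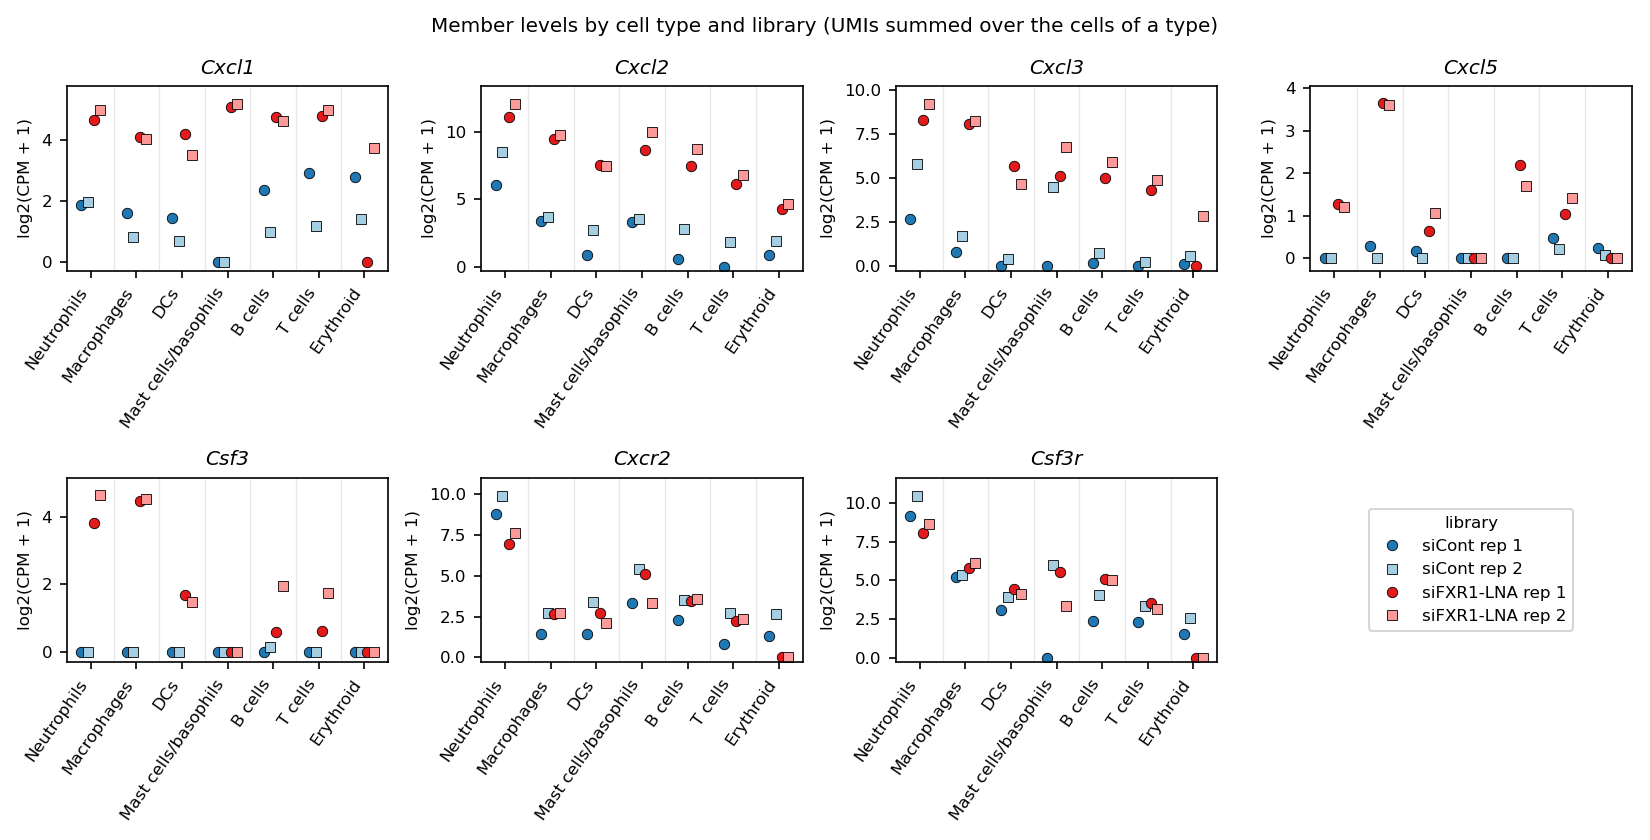
Level of each member as log2(CPM + 1) in each named cell type, with 1 point per library (2 siCont, 2 siFXR1-LNA). Cxcl2 and Cxcl3 stand highest in neutrophils, with macrophages next among neutrophils, macrophages, DCs, B cells and T cells, Cxcl1 lies between 10.4 and 35.5 CPM in the siFXR1-LNA types outside erythroid and NK cells, and Cxcr2 and Csf3r are highest in neutrophils in every library.

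Cxcr2 was a neutrophil transcript in every library and was lower in the neutrophils of siFXR1-LNA. Neutrophils had 440 and 955 CPM in siCont and 124 and 196 CPM in siFXR1-LNA. The log2 fold change was −2.42 ± 0.545 (edgeR adjusted p = 0.0384). Without siFXR1-LNA replicate 1 it was −2.13 and no longer past the threshold (edgeR adjusted p = 0.313). Neutrophils held 66.9% and 74.6% of all Cxcr2 UMIs in siCont and 74.5% and 85.8% in siFXR1-LNA. In macrophages Cxcr2 had 1.73 and 5.65 CPM in siCont and 5.31 and 5.56 CPM in siFXR1-LNA (0.75 ± 0.572, edgeR adjusted p = 0.393). B cells had 3.97, 10.2, 10.1 and 10.8 CPM in the same 4 libraries, each above the macrophages, and T cells had 0.775, 5.57, 3.69 and 4.02 CPM, each below them. The macrophage level thus lay between those of the lymphocyte classes and was not told from background.

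Csf3r had the same order in neutrophils without passing the test. It had 569 and 1406 CPM in siCont and 271 and 388 CPM in siFXR1-LNA, with a log2 fold change of −1.89 ± 0.551 (95% interval −3.10 to −0.68) and an edgeR adjusted p of 0.0867. With DESeq2 the change was past the threshold (adjusted p = 0.0175), where 524 of 13037 genes were called. In macrophages Csf3r had 36.8 and 38.8 CPM in siCont and 54.1 and 67.6 CPM in siFXR1-LNA, above the B cells of the same libraries (4.18, 15.3, 32.8 and 31.7 CPM). There it rose by a log2 fold change of 0.87 ± 0.145 (edgeR adjusted p = 0.0201), which did not hold without siFXR1-LNA replicate 1 (adjusted p = 0.0529) or replicate 2 (adjusted p = 0.0719). The B cell level was also higher in both siFXR1-LNA libraries than in siCont. The part of other cells' RNA in the macrophage change of Csf3r was not tested. Macrophages held 52.9% of the Csf3r UMIs of siCont replicate 1, where neutrophils were rarest, and 18.0%, 24.0% and 31.3% in the other 3 libraries.

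Erythroid transcripts in the neutrophils were fewer in both siFXR1-LNA libraries, while the macrophage markers there overlapped between the groups. Erythroid genes had a summed level of 247163 and 245139 CPM in siCont neutrophils and 84983 and 43829 CPM in those of siFXR1-LNA, with all 5 genes detected in each library. The 8 macrophage markers, all detected, had 821 and 365 CPM in siCont neutrophils and 391 and 711 CPM in siFXR1-LNA neutrophils. The 9 neutrophil markers summed to 40407 and 84692 CPM in siCont neutrophils and 29143 and 46044 CPM in siFXR1-LNA ones. In macrophages the neutrophil markers had 82.0 and 391 CPM in siCont and 1356 and 1605 CPM in siFXR1-LNA, beside 12829 and 11647 against 4198 and 6292 CPM of macrophage markers. With hemoglobin genes left out before normalization, Cxcr2 stayed past the threshold in neutrophils and Cxcl3 there did not (3.49, adjusted p = 0.0532). The part of other cells' RNA in the neutrophil and macrophage results was not tested.

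**Figure D3:**
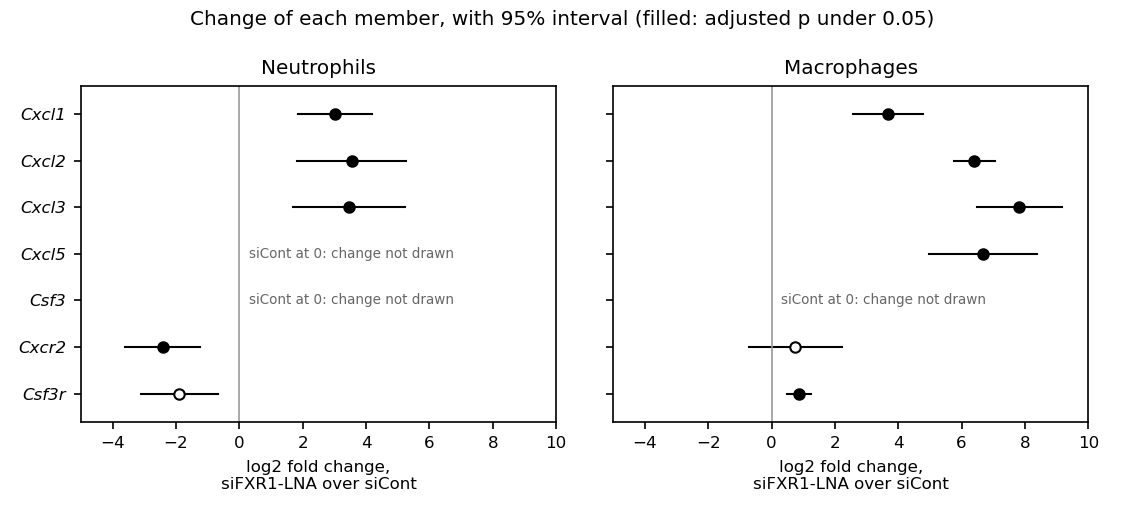
Log2 fold change of each member, siFXR1-LNA over siCont, with its 95% interval, in neutrophils and macrophages (filled points: edgeR adjusted p under 0.05). Ligand changes lie to the right of 0 in both classes, Cxcr2 and Csf3r lie to the left in neutrophils, and genes with no UMI in siCont are marked and not drawn.

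The change differed between neutrophils and macrophages for 4 of the 5 members with UMIs in both classes of both groups. The difference was tested as an interaction of class and group with the library as a block, in which 4.16% of 14656 genes were called. The neutrophil change less the macrophage change was −2.33 ± 0.526 for Cxcl2 (log2, SE, edgeR adjusted p = 0.00924) and −3.99 ± 0.518 for Cxcl3 (edgeR adjusted p = 2e-05). For the receptors it was −3.14 for Cxcr2 (edgeR adjusted p = 1.36e-05) and −2.46 for Csf3r (edgeR adjusted p = 0.000736), where the macrophage level of Cxcr2 was not told from background. Cxcl1 gave −0.74 (edgeR adjusted p = 0.661). B cells too had more Csf3r in both siFXR1-LNA libraries, and the part of other cells' RNA in its macrophage change was not tested. Cxcl2 and Cxcl3 thus had the smaller rise in the class with the higher siCont level. Without siCont replicate 2 the differences for Cxcl2 (−0.96, adjusted p = 0.373) and Cxcl3 (−2.48, adjusted p = 0.282) were no longer past the threshold. Without siFXR1-LNA replicate 1 those for Cxcl2 (−1.98, adjusted p = 0.283) and Csf3r (−2.36, adjusted p = 0.0732) were not.

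Ligand transcripts were also counted in the other named cell types. In siFXR1-LNA, Cxcl2 was lower in DCs, B, T, NK and erythroid cells than in macrophages, but mast cells and basophils had 411 and 1048 CPM, the second above the 883 CPM of the macrophages. In DCs, Cxcl2 had 0.862 and 5.56 CPM in siCont and 189 and 176 CPM in siFXR1-LNA, and 2 of 5 members tested were past the threshold as higher, where 0.381% of genes were called higher. These were Cxcl2 (log2 fold change 5.86, edgeR adjusted p = 0.0325) and Cxcl3, which had 0 and 2 UMIs in siCont and 91 and 68 UMIs in siFXR1-LNA (edgeR adjusted p = 0.0285). Neutrophil markers in DCs summed to 116 and 808 CPM in siCont and 1918 and 1187 CPM in siFXR1-LNA. In T cells 1 of 5 was past it, beside 0.199% of genes, namely Cxcl3 with 0 and 1 UMIs in siCont and 35 and 83 UMIs in siFXR1-LNA (edgeR adjusted p = 0.0145). In mast cells and basophils the only member tested, Cxcl2, was past it with 1 UMI in each siCont library and 37 and 118 UMIs in siFXR1-LNA (edgeR adjusted p = 0.0358), beside 0.166% of genes. Neutrophil markers in this type summed to 35.9 and 1321 CPM in siCont and 3541 and 2877 CPM in siFXR1-LNA, with 2 of the 9 markers at 0 in each siFXR1-LNA library, and their part in the result was not tested. In B cells none of 5 was past the edgeR threshold, beside 0.0722% of genes. There 4 had an unadjusted edgeR p under 0.05, as did 1787 of 12463 genes. DESeq2 called 3 of these 4 (Cxcl1, Cxcl2 and Cxcl3), beside 443 of 12842 genes. In erythroid cells none of 4 was past the threshold with edgeR, at an unadjusted p under 0.05 or with DESeq2. Of 11365 genes there, 0% were called by edgeR, 950 had an unadjusted p under 0.05, and DESeq2 called 53. The siFXR1-LNA libraries held 24 and 60 of these cells. Over the 7 types tested, 15 of 33 tested pairs of member and type were past the threshold, of 49 pairs in all.

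The lymphocyte levels of the ligands in siFXR1-LNA were set beside those of S100a8 and Cxcr2, neutrophil genes that lymphocytes are not known to make, each as a percent of the neutrophil level. In replicate 1, B cells had 8.07% of the neutrophil level of Cxcl2, 7.78% of that of S100a8 and 8.13% of that of Cxcr2, and T cells had 3.02%, 2.10% and 2.98%. In replicate 2, B cells had 9.85%, 6.14% and 5.48%, and T cells 2.55%, 1.64% and 2.05%. For Cxcl3 it was 10.1% in B cells of both libraries and 5.99% and 4.79% in T cells, so T cells held relatively more Cxcl3 than S100a8. Cxcl1 and Cxcl5 did not have this proportion, with Cxcl1 at 108% and 78.1% and Cxcl5 at 251% and 175% in B cells. How much of these levels was free RNA was not tested. DCs, at 189 and 176 CPM of Cxcl2 against 183 and 423 CPM in B cells, were above the B cells in replicate 1 and below them in replicate 2. In macrophages the Cxcl2 level was 31.6% of the neutrophil level in replicate 1 and 20.6% in replicate 2, against 5.03% and 3.77% for S100a8. The UMI ratio of Cxcl2 to Cxcl3 was 7.35 and 7.39 in siFXR1-LNA neutrophils and 2.75 and 2.91 in macrophages, and 5.85 and 7.18 in B cells and 3.71 and 3.93 in T cells. Ratios are of 3′ end counts, which were not divided by transcript length.

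**Figure D4:**
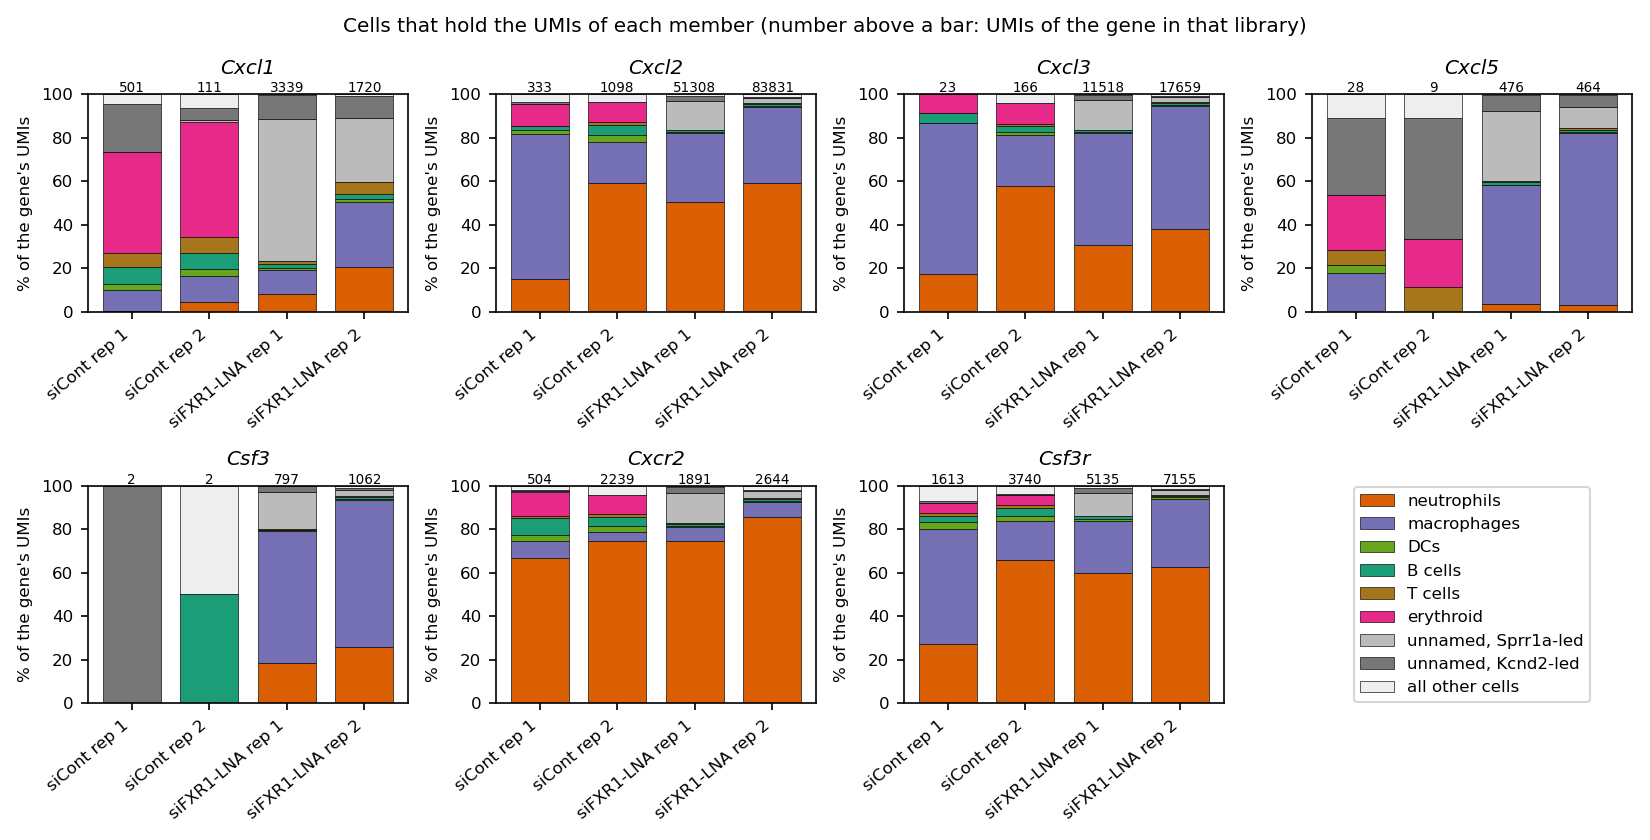
Share of each member's UMIs that lay in each cell type or in the unnamed clusters, 1 bar per library, with the gene's UMIs in that library above the bar. Neutrophils and macrophages held most Cxcl2, Cxcl3 and Csf3 UMIs in siFXR1-LNA, and neutrophils held most Cxcr2 UMIs in all 4 libraries.

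The sources of each ligand followed from these levels and from the cell numbers. In siFXR1-LNA, neutrophils held 50.2% and 59.2% of the Cxcl2 UMIs and macrophages 31.8% and 34.8%. For Cxcl3 the order was the other way, with 30.4% and 38.1% in neutrophils and 51.6% and 56.8% in macrophages. For Csf3, macrophages held 60.5% and 67.8% and neutrophils 18.7% and 25.9%. For Cxcl5, macrophages held 54.8% and 78.9%, and the Sprr1a-led cluster 32.1% and 9.27%. In siCont replicate 1, macrophages held 66.7% of the 333 Cxcl2 UMIs and neutrophils held 50 UMIs, while in replicate 2 it was 18.9% and 59.3% of 1098. The cells carrying the ligand genes thus differed between the siCont libraries along with the neutrophil share.

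Shares of cells with a UMI were compared after thinning each cell to 500 UMIs, which left out no neutrophil or macrophage. Cxcl2 was then detected in 3.23% and 13.5% of siCont neutrophils and 44.1% and 59.3% of siFXR1-LNA neutrophils (unthinned 7.16%, 27.8%, 69.8% and 81.4%). In macrophages it was detected in 0.205% and 0.702% and in 17.6% and 21.3% (unthinned 1.62%, 3.88%, 47.5% and 56.0%). T cells, as background, gave at most 0.135% in siCont and 3.74% and 5.81% in siFXR1-LNA. Cxcr2 was detected in 22.2% and 44.5% of siCont neutrophils and 5.90% and 8.58% of siFXR1-LNA neutrophils (unthinned 47.6%, 76.7%, 18.6% and 27.7%), against at most 0.270% of T cells. Csf3r was detected in 24.9% and 53.3% of siCont and 12.5% and 16.4% of siFXR1-LNA neutrophils, against at most 0.589% of T cells. Receptor-positive neutrophils were thus the smaller share and Cxcl2-positive ones the larger share in both siFXR1-LNA libraries, with no test run on these shares. Median depth of the neutrophils was 1534, 1417.5, 1870 and 2112.5 UMIs and that of T cells was 1987 to 2533 UMIs.

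In siFXR1-LNA neutrophils and macrophages, Cxcl3 was detected more often in cells with a Cxcl2 UMI than in cells without one. Among thinned siCont cells, the neutrophils of replicate 2 had this order (11.6% against 1.54%). The macrophages of replicate 2 gave 0% against 0.0471%, and both classes of replicate 1 gave 0% against 0%. Among thinned siFXR1-LNA neutrophils with a Cxcl2 UMI, 17.0% and 21.5% also had a Cxcl3 UMI, against 4.24% and 4.92% of those without. In macrophages it was 16.9% and 15.4% against 3.98% and 3.75%. Cxcr2 and Csf3r were also met together, with Csf3r in 20.9% and 28.5% of siFXR1-LNA neutrophils with a Cxcr2 UMI against 12.0% and 15.2% of the rest. Cxcl2 was detected in 36.8% and 57.2% of Cxcr2-positive neutrophils against 44.6% and 59.5% of the rest. Cells of a library are not replicates, so these shares are a description.

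Neutrophils formed 3 subclusters when clustered again without the members. One led by Ccl3 held 87.6% and 90.0% of the siFXR1-LNA neutrophils and 0.231% and 1.45% of the siCont ones. One led by Nlrp12 held 419 of 433 and 853 of 898 siCont neutrophils and 11.8% and 9.19% of the siFXR1-LNA ones. A small one led by Camp, Ltf and Ngp, the granule genes of immature neutrophils, held 3.00% and 3.56% in siCont and 0.569% and 0.835% in siFXR1-LNA. Macrophages likewise split, with an Alox15-led subcluster in all libraries (2986, 1223, 1192 and 1311 cells), an Ace-led one in siCont (1025 and 710 cells, against 0 and 1) and one led by Mt2 and Saa3 in siFXR1-LNA (2118 and 1920 cells, against 0 and 1).

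Ligand transcripts were abundant in the subclusters found almost only in siFXR1-LNA. Ccl3-led neutrophils of siFXR1-LNA had 2501 and 4738 CPM of Cxcl2, 342 and 648 CPM of Cxcl3 and 14.6 and 26.2 CPM of Csf3. The Mt2- and Saa3-led macrophages had 961 and 1231 CPM of Cxcl2, 368 and 453 CPM of Cxcl3, 29.1 and 31.6 CPM of Csf3 and 16.2 and 16.3 CPM of Cxcl5. In the Nlrp12-led neutrophils, present in all libraries, Cxcl2 had 68.3 and 416 CPM in siCont and 1020 and 1422 CPM in siFXR1-LNA. Cxcr2 there had 456 and 1035 CPM in siCont and 148 and 410 CPM in siFXR1-LNA. In the Alox15-led macrophages Cxcl2 had 11.7 and 18.6 CPM in siCont and 137 and 199 CPM in siFXR1-LNA, and Cxcl5 had 0.184, 0, 0.572 and 0.910 CPM. The Camp-led neutrophils had Cxcl2 at 21.2 and 56.8 CPM in siCont and 2764 and 1688 CPM in siFXR1-LNA, from 13, 32, 31 and 40 cells, and Cxcr2 at 212 and 393 CPM in siCont and 175 and 146 CPM in siFXR1-LNA.

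Fits within those 2 shared subclusters, chosen after seeing the data, kept the directions but no call. Within Nlrp12-led neutrophils the log2 fold change was 2.31 for Cxcl2 (edgeR adjusted p = 0.263), 1.96 for Cxcl3 (adjusted p = 0.425), 2.68 for Cxcl1 (adjusted p = 0.0887), −1.42 for Cxcr2 (adjusted p = 0.442) and −1.34 for Csf3r (adjusted p = 0.475). Within Alox15-led macrophages it was 3.48 for Cxcl2 (adjusted p = 0.199) and 5.05 for Cxcl3 (adjusted p = 0.133). In these fits 40 genes were called in neutrophils and 0 in macrophages, where 1217 had an unadjusted p under 0.05.

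**Figure D5:**
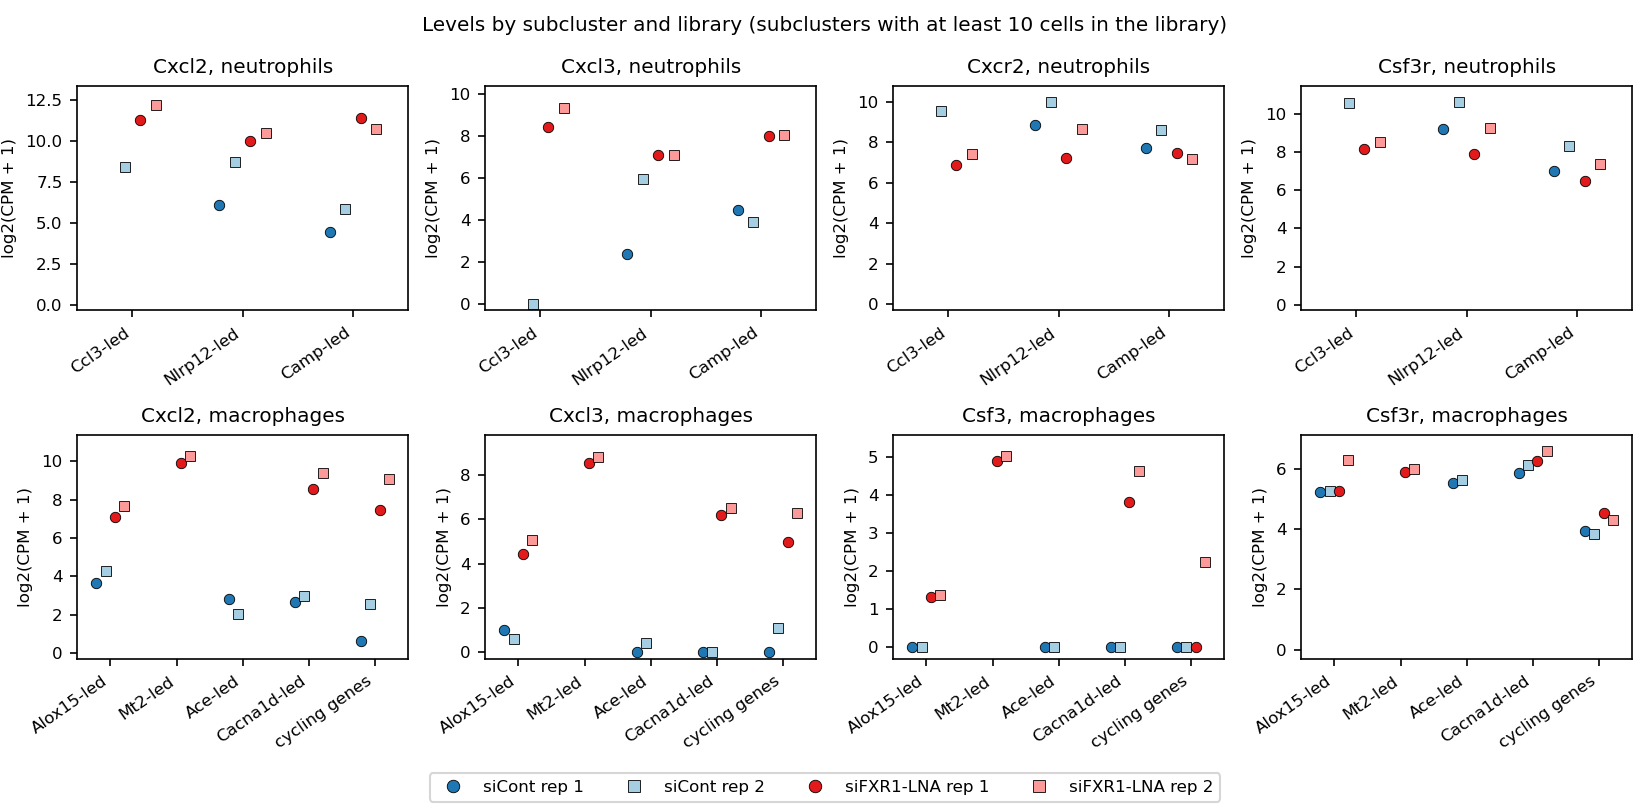
Levels of members as log2(CPM + 1) by subcluster and library, for subclusters with at least 10 cells in the library, named by their leading genes. Cxcl2 in Nlrp12-led neutrophils lies at 68.3 and 416 CPM in siCont and 1020 and 1422 CPM in siFXR1-LNA, and Ccl3-led neutrophils of siFXR1-LNA lie higher still at 2501 and 4738 CPM.

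Of the other genes of this pathway, taken from fixed lists, those of NF-kappaB feedback all rose in macrophages, where 9.3% of all genes were called higher and 9.68% lower. These 4 were Tnfaip3 (log2 fold change 3.86), Nfkbia (1.96), Zfp36 (1.30) and Nfkbiz, with a list median of 1.63 against 0.01 over all genes tested. Tnfaip3 and Nfkbia encode proteins that restrain NF-kappaB signalling, and Zfp36 one that speeds the decay of inflammatory transcripts. In neutrophils, where 1.11% of genes were called higher and 2.54% lower, 1 of 4 rose, Tnfaip3 (2.66), with a median of 1.60 against −0.01. Of the genes for cytokines that induce the ligands and for their receptors, 3 of 6 tested rose in macrophages (Il1a 3.01, Il1b 2.00, Tnf 1.02). In neutrophils 1 of 5 rose, Il1a, which had 1 and 0 UMIs in siCont and 145 and 301 UMIs in siFXR1-LNA. All of these are edgeR calls with Benjamini-Hochberg adjustment over all genes.

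Receptors and adhesion genes moved in both directions. In macrophages 9.3% of all genes were called higher and 9.68% lower, and in neutrophils 1.11% higher and 2.54% lower. Cxcr1, the other ELR chemokine receptor, fell in neutrophils (−3.73), the only one of 4 tested genes of its list past the threshold, and Ppbp, which encodes a platelet chemokine precursor, and Cxcr4 rose in macrophages (4.30 and 1.26, 2 of 3). Among other chemoattractant receptors, the formyl peptide receptor genes Fpr2 and Fpr1 rose in macrophages (3.00 and 2.06, 2 of 7) and in DCs (3.36 and 3.30, 2 of 6, beside 0.381% of genes), and C5ar2 fell in neutrophils (−2.07, 1 of 7). In DCs Fpr1 had 2.34 and 1.54 CPM in siCont and 20.6 and 19.3 CPM in siFXR1-LNA, beside the higher neutrophil marker levels given above for these libraries, whose part was not tested. Neutrophil Fpr1 had 87.4 and 212 CPM in siCont and 309 and 582 CPM in siFXR1-LNA without passing the test (edgeR adjusted p = 0.260). Of the adhesion genes, none of 6 passed in neutrophils with edgeR or DESeq2. There 3 had an unadjusted edgeR p under 0.05, beside 2259 of 12305 genes. Itgal (−1.67) and Selplg (−0.97) fell in macrophages, 2 of 6 tested. In T cells Itgam rose (1.96), 1 of 5 adhesion genes tested, beside 0.199% of genes. Neutrophil markers in T cells summed to 67.0 and 444 CPM in siCont and 680 and 738 CPM in siFXR1-LNA, and their part in this was not tested.

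Genes of G-CSF receptor signalling moved in both directions in macrophages. There 3 of 9 rose (Socs3 1.84, Mcl1 0.87, Jak2 0.60) and 2 fell (Cebpe −2.09 and Tyk2 −0.74), with a median of 0.51, where 9.3% of all genes were called higher and 9.68% lower. Socs3 encodes an inhibitor that is induced by G-CSF and other cytokines. In neutrophils none of 9 passed with edgeR or DESeq2, 1 had an unadjusted edgeR p under 0.05, and the median was −0.32. Of 12305 genes in neutrophils, edgeR called 1.11% higher and 2.54% lower, and 2259 had an unadjusted p under 0.05. DESeq2 called 524 of 13037 there. Whether these genes changed differently in the classes was not tested. In neutrophils Socs3 had 67.8 and 121 CPM in siCont and 68.9 and 114 CPM in siFXR1-LNA. Of the genes for colony stimulating factors and their receptors, Csf2rb2 (1.07) and Csf1 (1.05) rose in macrophages, 2 of 5 tested. In neutrophils none of 5 passed with edgeR, at an unadjusted p under 0.05 or with DESeq2, beside the neutrophil background just given.

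The genes whose levels most resembled each member were taken over 31 points of cell type and library, from 8 named types, as Pearson's r of log2(CPM + 1). Unnamed clusters, where Cxcl1 was highest in siFXR1-LNA, were not among the points. Cxcl2 was nearest to Lcn2 (r = 0.956), Cxcl3 (0.950) and Wfdc21 (0.947), and Cxcl3 also to Nos2 (0.927) and Clec4e (0.917). Cxcl5 was nearest to 9930022D16Rik (0.936), Saa1 (0.874) and Wnk2 (0.870), and Csf3 to Sod2 (0.873), 9930022D16Rik (0.863) and Fam71f2 (0.838). For the receptors the nearest were S100a9 (0.893), Mrgpra2b (0.868) and S100a8 (0.867) for Cxcr2, and Gm16556 (0.915), Mmp9 (0.899) and Pi16 (0.873) for Csf3r. Cxcl1 stood apart, nearest to Parm1 (0.919), Col4a1 (0.909) and Dsg2 (0.879), of which Col4a1 encodes a basement membrane collagen and Dsg2 a desmosomal cadherin. The points share libraries and depth, so these values are a description with no test.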

How the data were processed

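Ascites cells of 4 libraries (2 siCont, 2 siFXR1-LNA) were sequenced by 10x Genomics 3′ chemistry, for which the labels name both the v2 and the v3.1 kit. The deposited counts are whole UMI counts per gene and barcode that the authors made with Cell Ranger (version 7.0.0 in the submitters' processing notes) on mm10, and they were not normalized. The study left out 1 siFXR1-LNA replicate with fewer reads without naming it, and all 4 libraries were used here.

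The study's limits on cells (100 to 4800 genes, mitochondrial UMIs up to 15%) left 132644. Seurat 5.3.0 (R 4.3.3) clustered them on 50 principal components of 1969 variable genes, without the members and pathway genes, at a resolution of 0.1, together and without integration. No doublet was removed in the main analysis. Clusters were named from marker lists: a name needed 3 markers with 2 times the level of the remaining clusters and detected in 5% of cells. Further rules on cluster size, depth, leading genes and mixed markers withheld some names. Macrophage, T cell and neutrophil clusters were clustered again. Subclusters with fewer than 3 raised markers of any list kept the parent name (1177 cells among macrophages, 916 among T cells). The clusters were known when this rule was written. The members, the pathway lists and the markers were chosen with earlier results of these data known.

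UMIs were summed per library and type, given as CPM of that sum, and tested with edgeR 4.0.16 (quasi-likelihood test after TMM and filterByExpr, threshold 0.05 after Benjamini-Hochberg adjustment), with at least 10 cells per library. Libraries were the replicates. The test was checked on simulated counts, where it recovered a smaller share of the changed genes in neutrophils than in macrophages. A gene that did not pass in neutrophils is therefore weaker evidence of no change than one in macrophages. Where siCont had no UMI, a bound against 3 counts over the group is given. The genes named were all members, at most 3 called genes per pathway list and type, and the 3 nearest patterns of each member. In macrophages more called genes than that were named for the NF-kappaB feedback and G-CSF receptor signalling lists. Other values of pathway genes and marker lists were picked after they were seen. Alternatives were DESeq2 1.42.0, no low-count filter, no hemoglobin genes, a replicate block, resolution 0.3, at least 500 genes per cell, members kept in the clustering, removal of the 5% highest Scrublet scores (scanpy 1.11.5) or of shared barcodes, each library left out and, added after seeing the data, fits within 1 subcluster.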

Additional observations from a re-analysis of the deposited data

Results flagged for a closer look

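The siFXR1-LNA over siCont change of 4 members differed between neutrophils and macrophages by the test of the difference itself, an interaction fitted with edgeR. In that fit 4.16% of 14656 genes were called. On the log2 scale the neutrophil change less the macrophage change was −2.33 for Cxcl2, −3.99 for Cxcl3, −3.14 for Cxcr2 and −2.46 for Csf3r. With 1 library left out, Cxcl2, Cxcl3 and Csf3r did not pass in every fit. Without siCont replicate 2 the difference was −0.96 for Cxcl2 and −2.48 for Cxcl3. The macrophage level of Cxcr2 was below that of B cells in each library, so its difference sets the neutrophil change against a level not told from background. For Csf3r the B cell level was higher in siFXR1-LNA as well, and the part of other cells' RNA in its macrophage change was not tested. The classes were made up of different subclusters in the groups, and the part of that in the differences was not tested.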

How the results depend on the processing

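In fits within 1 subcluster shared by the groups, macrophage log2 fold changes were 2.64 for Cxcl1, 3.48 for Cxcl2, 5.05 for Cxcl3 and 0.63 for Csf3r, with at least 3.77 for Csf3, and neutrophil ones 2.68 for Cxcl1, 2.31 for Cxcl2, 1.96 for Cxcl3 and −1.42 for Cxcr2, none past the threshold with edgeR (40 genes called in neutrophils, 0 in macrophages). Fewer cells were summed in these fits. Genes called in neutrophils, 449 in the report, were 298 without the highest Scrublet scores and 0 with edgeR and no filter on low counts, where 2162 had an unadjusted p under 0.05 and DESeq2 called 524. Without that filter the neutrophil values were 3.09 for Cxcl1, 3.61 for Cxcl2, 3.51 for Cxcl3, −2.36 for Cxcr2 and at least 3.95 for Csf3, none called. Neutrophil Cxcl2, Cxcl3 and Cxcr2 were 3.50, 3.44 and −2.42 without shared barcodes and 3.60, 3.49 and −2.39 without the highest Scrublet scores, and Cxcl3 was 3.57 with DESeq2, 3.48 at resolution 0.3 and 3.49 without hemoglobin genes, each just or well short of the threshold. Csf3r in neutrophils was past it with DESeq2 (−1.83).

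Leaving out 1 library in turn, which leaves a group with 1 library assumed to vary like the others, gave 157 to 2354 genes called in neutrophils and 361 to 2179 in macrophages, both lowest without siFXR1-LNA replicate 1 (157 and 361) and both highest without siCont replicate 1. Other neutrophil counts were 812 without siCont replicate 2 and 272 without siFXR1-LNA replicate 2, and other macrophage counts 1807 and 810. Pairs of member and type past the threshold ranged from 10 to 22. Neutrophil Cxcr2 ranged from −2.89 to −1.52 and missed the threshold without siFXR1-LNA replicate 1 (−2.13), and Csf3r from −2.41 to −0.85, called without siCont replicate 1 alone. In macrophages Cxcl1 ranged from 3.18 to 4.54 and Csf3r from 0.72 to 1.04, both missing it without either siFXR1-LNA library, Cxcl5 from 5.89 to 11.14, missing it without siFXR1-LNA replicate 1, and Cxcr2 from 0.10 to 1.87, called without siCont replicate 2. The fitted 11.14 has no UMI in siCont and is no bound. The differences between the classes ranged from −3.43 to −0.96 for Cxcl2, −4.45 to −2.48 for Cxcl3, −3.19 to −1.69 for Csf3r and −1.57 to 0.27 for Cxcl1. The neutrophil share differed by 7.63 to 25.99 percentage points. Reversed signs, none past the threshold, were met for Cxcr2 in B cells (−0.17), DCs (range −1.22 to 1.28, and 0.010 at resolution 0.3) and T cells (−0.70 to 2.10), Csf3r in T cells (−0.16 to 1.05) and Cxcl1 in erythroid cells (−9.56 to 1.38, and −9.24 with members kept in the clustering).

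The labels give replicate numbers to both groups, but with 2 pairs the numbers do not establish a pairing (correlation of same-numbered deviations 0.03 to 0.37 over the types). With the replicate block, 23 pairs of member and type and 1472 genes in neutrophils were called, and Csf3r in neutrophils was past the threshold (−1.70). Thinning to 1000 UMIs, or none, moved 40 macrophage and 39 neutrophil shares of cells with a UMI beyond their intervals and left 16 and 17 within them. Where a cause is not stated, it was not tested. Depth limits what the siCont neutrophils can show, since 3 counts over both libraries amount to 1.19 CPM.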
